A study of Mus musculus with 6 samples.

Results

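The matrix metalloproteinases examined here are 10 genes, *Mmp2*, *Mmp3*, *Mmp9*, *Mmp11*, *Mmp13*, *Mmp14*, *Mmp15*, *Mmp16*, *Mmp19* and *Mmp23*. They were taken by name, and all 10 were found among the 27179 genes of the count table. RNA was sequenced from 2 fibroblast populations, CD34hi and CD34lo, sorted as Lin–CD24–Pdgfrα+ cells from the mammary glands of pubertal mice aged 6 weeks (FVB/N in the labels and FVB/NJ in the methods of the study), with no transgene or treatment given for either. Each of 3 pools of 2 mice gave 1 library of each population, which makes 6 libraries. A library therefore reports a mixture of cells inside a gate and the mean of a pool of animals, and fewer cells of a type cannot be told apart from less RNA per cell. The comparison asks how the RNA of the family is distributed between CD34hi and CD34lo fibroblasts of the same glands.

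Matrix metalloproteinases are zinc-dependent endopeptidases that cut collagens, laminins, proteoglycans and other proteins outside the cell. They are made as inactive proenzymes, are switched on by removal of the propeptide and are held in check by the tissue inhibitors of metalloproteinases. In the pubertal mammary gland, stromal members of the family are known for their part in the invasion of the terminal end buds and in side branching of the ducts.

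Totals ranged from 28764779 to 52402410 counts in the CD34lo libraries and from 36740921 to 45958181 in the CD34hi libraries. A floor of 3 counts corresponded to 0.0572 to 0.104 CPM (counts scaled to a common library size), depending on the library. *Cd34*, the gene of the sorting marker, was higher in all 3 CD34hi libraries, with a log2 fold change of 2.02. *Cd24a*, on which cells were excluded, was low (4.56 to 5.43 CPM in CD34lo and 14.3 to 21.8 CPM in CD34hi libraries), and *Ptprc*, the leukocyte gene, had at most 0.359 CPM. The 5 fibroblast markers *Dcn*, *Lum*, *Pdgfra*, *Col1a2* and *Igfbp5* summed to between 28380 and 36410 CPM in each library. Of these, *Igfbp5* was higher in CD34hi fibroblasts (log2 fold change 3.45), *Lum* (-1.28), *Pdgfra* (-0.74) and *Col1a2* (-0.69) were higher in CD34lo fibroblasts, and *Dcn* did not pass. Values below are CPM scaled by the trimmed mean of M-values (TMM), and log2 fold changes are CD34hi vs CD34lo, so that a negative value means higher in CD34lo fibroblasts. Adjusted p-values come from edgeR's quasi-likelihood test over the 15219 genes that passed its filter on low counts, with Benjamini-Hochberg adjustment and a threshold of 0.05. For a single gene, an exact permutation test of 3 libraries against 3 cannot go below p = 0.1.

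Of the 10 genes, 5 (*Mmp3*, *Mmp13*, *Mmp15*, *Mmp16* and *Mmp19*) were higher in CD34lo fibroblasts and 1 (*Mmp23*) was higher in CD34hi fibroblasts. *Mmp2*, *Mmp14* and *Mmp11* did not pass the test, and *Mmp9* was too low to be tested. Over all genes tested, 35.6% passed, 18.7% as higher in CD34lo and 16.9% as higher in CD34hi fibroblasts. The median log2 fold change was -1.71 over the 9 tested genes of the family list and -0.0064 over all tested genes. *Mmp13* entered the test only through its CD34lo libraries, so these counts and the median describe the list and are not offered as evidence about it. In 6 of the tested members the libraries of the populations did not overlap, 5 with CD34lo and 1 with CD34hi on top. This was the case for 50.1% of all genes tested, 25.3% with CD34lo and 24.8% with CD34hi on top.

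**Figure D1:**
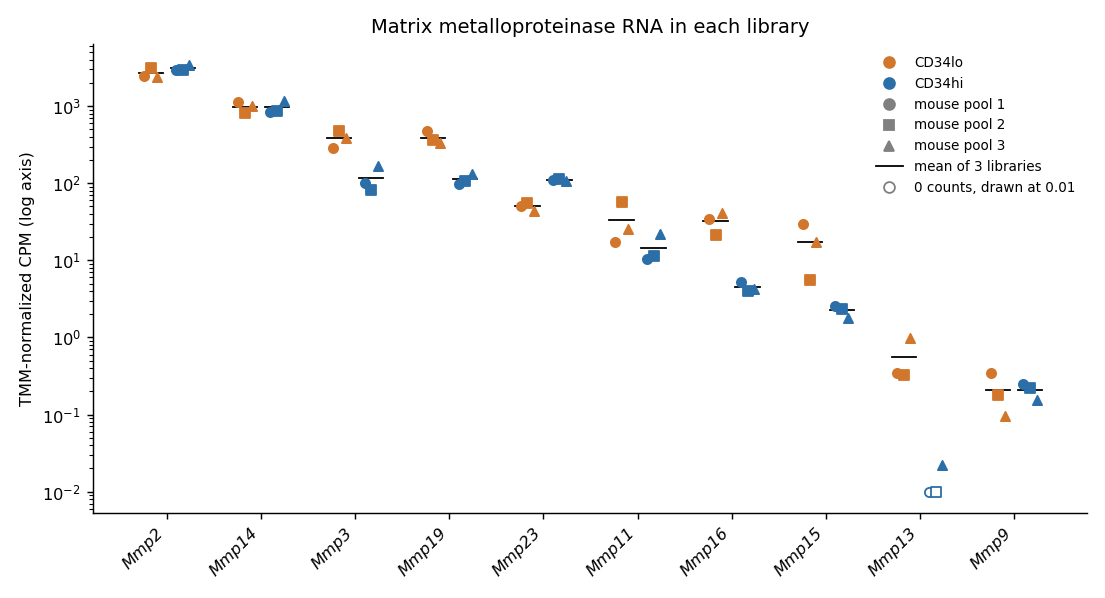
TMM-normalized CPM (log axis) of the 10 genes in each library, ordered from left to right by abundance. Points are libraries, with the shape giving the mouse pool and the color the population, bars are means of 3 libraries where none is at 0, and open points are libraries with 0 counts. *Mmp2* and *Mmp14* lie at the top with overlapping populations, whereas *Mmp3*, *Mmp19*, *Mmp16*, *Mmp15* and *Mmp13* are higher in every CD34lo library and *Mmp23* is higher in every CD34hi library.

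*Mmp2* (gene 17390, chromosome 8, 92827328 to 92853420, GRCm38/mm10) encodes gelatinase A, a secreted enzyme that cleaves denatured collagens and type IV collagen. It had 2469, 3174 and 2424 CPM in the CD34lo libraries of pools 1, 2 and 3, and 2957, 2958 and 3396 CPM in the CD34hi libraries. The ranges overlapped, since the CD34lo library of pool 2 exceeded the CD34hi libraries of pools 1 and 2. The log2 fold change was 0.21 (standard error 0.17, 95% interval -0.17 to 0.58, edgeR adjusted p = 0.370).

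*Mmp14* (gene 17387, chromosome 14, 54431604 to 54441258) encodes a membrane-anchored collagenase that also activates the proenzyme of *Mmp2* at the cell surface. It had 1150, 822 and 996 CPM in CD34lo and 847, 866 and 1176 CPM in CD34hi fibroblasts. The populations were interleaved, and the difference within a pool was negative in pool 1 (-0.44 on the log2 scale) and positive in pools 2 and 3 (0.075 and 0.24). The log2 fold change was -0.039 (standard error 0.19, 95% interval -0.46 to 0.38, edgeR adjusted p = 0.891). Its sign turned when pool 1 was left out, to 0.19, again without passing the test.

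*Mmp15* and *Mmp16*, which like *Mmp14* encode membrane-anchored enzymes, behaved differently from *Mmp14*. *Mmp16* (gene 17389, chromosome 4, 17853482 to 18118734) had 34.3, 21.4 and 41.7 CPM in CD34lo and 5.30, 4.0 and 4.23 CPM in CD34hi fibroblasts. The populations were far apart, and the lowest CD34lo library came from pool 2. For *Mmp16* the log2 fold change was -2.85 (standard error 0.25, edgeR adjusted p = 5.45e-05). *Mmp15* (gene 17388, chromosome 8, 95352337 to 95374293) had 29.4, 5.54 and 17.3 CPM in CD34lo and 2.57, 2.35 and 1.81 CPM in CD34hi fibroblasts. The CD34lo libraries differed widely among themselves, and the lowest of them, again from pool 2, was still above all CD34hi libraries. The log2 fold change was -2.97 (standard error 0.52, edgeR adjusted p = 0.00236), and it was -2.33 without the CD34lo library of pool 1, which was the highest. The difference within pools was -3.49, -1.22 and -3.22 for *Mmp15* and -2.68, -2.40 and -3.29 for *Mmp16*.

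*Mmp19* and *Mmp3*, secreted enzymes, carried the larger amounts of RNA among the genes that were higher in CD34lo fibroblasts. *Mmp19* (gene 58223, chromosome 10, 128790910 to 128800824) had 470, 366 and 336 CPM in CD34lo and 98.9, 108 and 134 CPM in CD34hi fibroblasts. The log2 fold change of *Mmp19* was -1.78 (standard error 0.18, edgeR adjusted p = 9.52e-05), which is 3.44 times as much RNA in CD34lo as in CD34hi fibroblasts. A gene on the opposite strand, *Tmem198b*, overlaps it and held 5189 counts against 60539, and without strand information their reads cannot be told apart. *Mmp3* (gene 17392, chromosome 9, 7445822 to 7455975) encodes stromelysin-1, which degrades proteoglycans and laminin and activates other proenzymes of the family. It had 288, 470 and 386 CPM in CD34lo and 101, 83.0 and 166 CPM in CD34hi fibroblasts. For *Mmp3*, the log2 fold change was -1.71 (standard error 0.28, edgeR adjusted p = 0.00152). The populations did not overlap for either gene, and *Mmp3* differed most in pool 2 (-2.50) and least in pool 3 (-1.22), where the CD34hi library was highest.

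*Mmp23* (gene 26561, chromosome 4, 155650655 to 155653384) was the single member higher in CD34hi fibroblasts. Its product is an atypical member that lacks the hemopexin domain of the other enzymes and is released from the membrane by cleavage of its own prodomain. It had 51.0, 56.3 and 44.1 CPM in CD34lo and 110, 112 and 108 CPM in CD34hi fibroblasts. The 3 CD34hi libraries lay close together, at 2.18 times the level of CD34lo fibroblasts. For *Mmp23* the log2 fold change was 1.13 (standard error 0.12, edgeR adjusted p = 1.44e-04), with 1.10, 1.00 and 1.30 within pools 1, 2 and 3. This was the smallest standard error among the 9 tested members.

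*Mmp11* (gene 17385, chromosome 10, 75923224 to 75932463) encodes stromelysin-3, which is activated inside the cell by furin. It had 17.1, 56.5 and 25.4 CPM in CD34lo and 10.4, 11.4 and 21.7 CPM in CD34hi fibroblasts. The CD34lo library of pool 2 stood well above the other 5, and the CD34hi library of pool 3 exceeded the CD34lo library of pool 1. The log2 fold change was -1.18 (standard error 0.44, edgeR adjusted p = 0.0673) and did not pass. When pools were entered as a replicate block, it was -1.07 and passed (edgeR adjusted p = 0.0260). It also passed without the CD34hi library of pool 3 (-1.59, edgeR adjusted p = 0.0318) and without the CD34lo library of pool 1 (-1.47, edgeR adjusted p = 0.0298). The size rested on pool 2, since the log2 fold change was -0.40 without that pool and -0.55 without its CD34lo library, and did not pass in either case. Within each pool the CD34lo library was the higher, with log2 differences of -0.71, -2.31 and -0.22.

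*Mmp13* (gene 17386, chromosome 9, 7272514 to 7283333) encodes collagenase-3, the main collagenase of rodents for fibrillar collagens. It was rare, with 19, 9 and 31 counts in the CD34lo libraries and 0, 0 and 1 count in the CD34hi libraries. Scaled by library size, the CD34lo total of 59 counts was 65.9 times the CD34hi total of 1 count (95% interval 11.4 to 2640, exact binomial, covering counting error only). The edgeR adjusted p was 0.00238, and the gene was not testable when the counts were thinned to the shallowest library. The fitted log2 fold change of -5.65 was -7.42 without the CD34hi library of pool 3, the only CD34hi library with a count, and -4.97 without the CD34lo library of pool 3. *Mmp9* (gene 17395, chromosome 2, 164948251 to 164955846), which encodes gelatinase B and is known from neutrophils and macrophages, had 19, 5 and 3 counts in CD34lo and 11, 8 and 7 counts in CD34hi libraries. These counts overlapped and did not pass the filter, so that no difference was detectable at this depth. The 5 neutrophil markers summed to at most 0.277 CPM in a library, and *Retnlg* was at 0 in all of them.

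**Figure D2:**
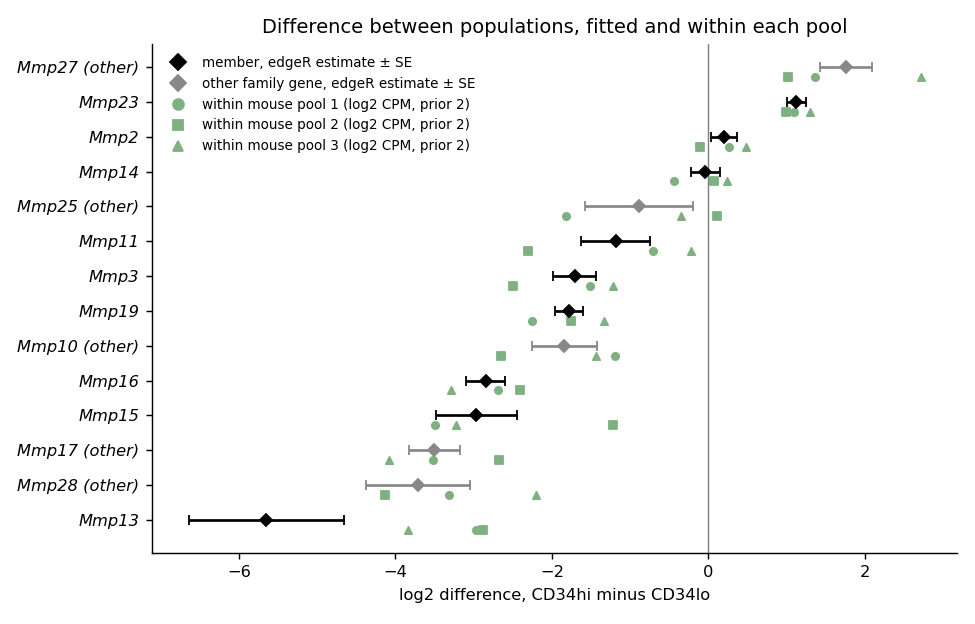
Log2 difference between CD34hi and CD34lo fibroblasts for the 14 family genes that could be tested. Diamonds are edgeR estimates with their standard errors, black for the 9 tested members and grey for 5 other family genes, and the small green symbols are the differences within each mouse pool on log2 CPM with a prior count of 2, which draws the values of very low genes such as *Mmp13* towards 0. *Mmp23* and *Mmp27* lie to the right of 0, *Mmp2* and *Mmp14* lie around it, and the other estimates lie to the left, of which *Mmp11* and *Mmp25* did not pass the test.

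Levels can be compared between genes only per length, and for this the TMM-normalized CPM was divided by the gene length in kilobases that the table gives. In CD34lo fibroblasts the order was *Mmp2* (884 ± 138, SD, n = 3), *Mmp14* (381 ± 63.2), *Mmp3* (212 ± 50.7), *Mmp19* (113 ± 20.4), *Mmp23* (35.2 ± 4.26), *Mmp11* (14.7 ± 9.25), *Mmp16* (7.10 ± 2.25), *Mmp15* (4.07 ± 2.79), *Mmp13* (0.208 ± 0.142) and *Mmp9* (0.0665 ± 0.0412). *Mmp11* and *Mmp16*, and *Mmp16* and *Mmp15*, overlapped between libraries and cannot be ranked, whereas the other neighbors did not overlap. In CD34hi fibroblasts *Mmp2* (1021 ± 83.2) and *Mmp14* (371 ± 71.3) led as well, and *Mmp23* (76.8 ± 1.45) came next, overlapping with *Mmp3* (64.7 ± 24.2). *Mmp19* (32.9 ± 5.19) followed, and *Mmp16* and *Mmp15* were below 1 on this scale, at 0.986 and 0.524.

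The summed level of the 10 members per length was similar in both populations, at 1651 ± 131 (SD, n = 3) in CD34lo and 1574 ± 185 (SD, n = 3) in CD34hi fibroblasts, with overlapping libraries. Its composition differed. *Mmp2* made up 50.5% to 58.1% of the sum in CD34lo libraries and 62.5% to 66.3% in CD34hi libraries. *Mmp3* made up 9.93% to 14.5% in CD34lo and 3.14% to 5.15% in CD34hi libraries, and *Mmp19* made up 5.90% to 8.47% and 1.95% to 2.16%. The share of *Mmp23* was 1.99% to 2.21% in CD34lo and 4.23% to 5.34% in CD34hi libraries. The share of *Mmp14* overlapped, at 17.6% to 27.5% and 22.2% to 25.4%. These shares are descriptions without a test, and they do not depend on how the libraries were scaled.

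**Figure D3:**
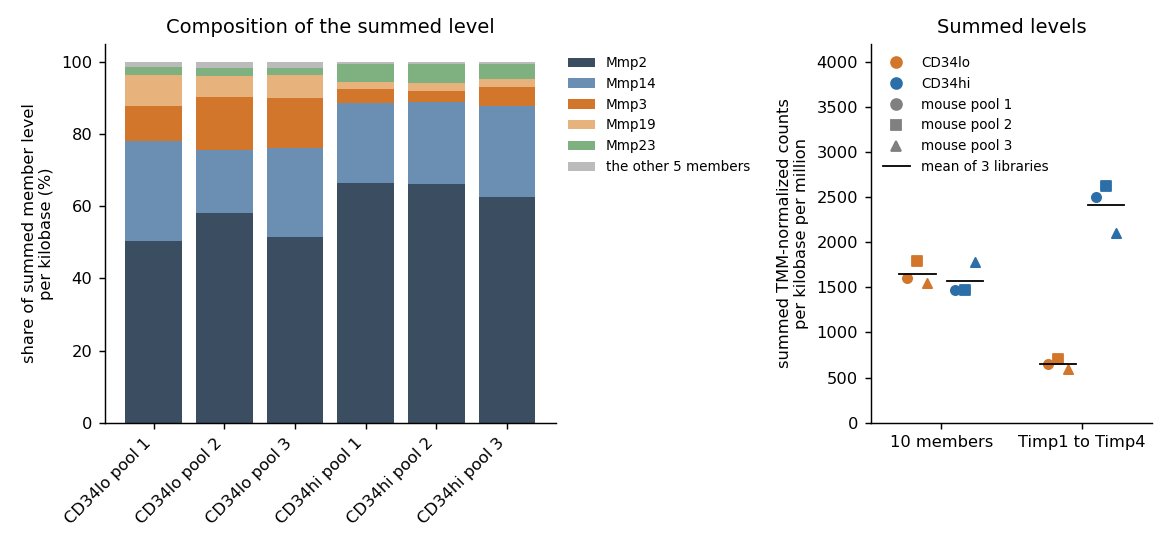
Left, the share (%) of each member in the summed level of the 10 members per kilobase, as a stacked bar for each library. Right, the summed level of the 10 members and of *Timp1* to *Timp4* in TMM-normalized CPM per kilobase, with 1 point per library and a bar at the mean of 3 libraries. The sums of the members overlap between populations (1548 to 1798 in CD34lo and 1466 to 1787 in CD34hi), whereas those of the inhibitors do not (598 to 700 and 2106 to 2626).

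*Mmp3* and *Mmp13* lie in a run of 10 matrix metalloproteinase genes on chromosome 9 (7272514 to 7699416, 427 kilobases, GRCm38/mm10), within which the count table lists no other gene. In genomic order these are *Mmp13*, *Mmp12*, *Mmp1b*, *Mmp3*, *Mmp1a*, *Mmp10*, *Mmp8*, *Mmp27*, *Mmp20* and *Mmp7*. Of these, 4 had enough counts to be tested. *Mmp10*, which encodes stromelysin-2, went in the direction of *Mmp3* and *Mmp13*, with 1.6, 4.06 and 3.25 CPM in CD34lo and 0.671, 0.607 and 1.17 CPM in CD34hi fibroblasts. *Mmp10* had a log2 fold change of -1.84 (standard error 0.42, edgeR adjusted p = 0.00880), and it no longer passed without pool 2 (-1.38, edgeR adjusted p = 0.0858).

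*Mmp27*, which lies downstream of these 3 genes in the same run, went the other way. It had 11.1, 17.5 and 10.1 CPM in CD34lo and 28.7, 35.5 and 66.5 CPM in CD34hi fibroblasts. The populations did not overlap, and the log2 fold change was 1.76 (standard error 0.33, edgeR adjusted p = 0.00340). The other 6 genes of the run were at or near 0. *Mmp12*, the macrophage elastase, had 21 counts in CD34lo and 2 in CD34hi libraries in total. *Mmp8*, a neutrophil collagenase, had 19 and 0, of which 15 came from the CD34lo library of pool 2. *Mmp1a* had 4 and 1, and *Mmp1b*, *Mmp20* and *Mmp7* had 0 counts in all libraries. *Mmp3* and *Mmp10* are related genes, and the treatment of reads that match several places is not given in the sources used here.

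**Figure D4:**
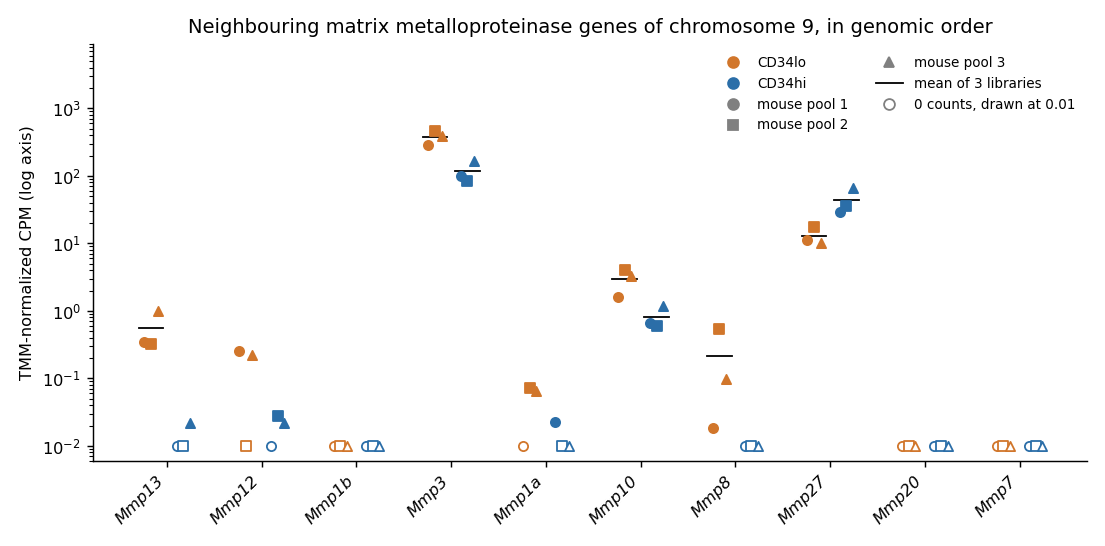
TMM-normalized CPM (log axis) of the 10 neighboring matrix metalloproteinase genes of chromosome 9, in genomic order, with 1 point per library. Bars are means of 3 libraries where none is at 0, and open points are libraries with 0 counts, drawn at 0.01. Orange points (CD34lo) lie above blue points (CD34hi) for *Mmp13*, *Mmp3* and *Mmp10*, and below them for *Mmp27*, while *Mmp1b*, *Mmp20* and *Mmp7* are at 0 throughout.

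The proximal promoters of the 4 tested genes of this run are shown as a description of the sequence, with the differences of these genes known beforehand. Each line gives the 110 bases before the annotated start on the plus strand, 5′ to 3′, from RefSeq (GRCm38.p6), at chr9:7272404-7272513, chr9:7445712-7445821, chr9:7502232-7502341 and chr9:7571286-7571395. Capitals mark the AP-1 motif (TGACTCA, searched on both strands, so that it also reads TGAGTCA) and the TATA motif (TATAAA, on the strand of the gene).
Mmp13: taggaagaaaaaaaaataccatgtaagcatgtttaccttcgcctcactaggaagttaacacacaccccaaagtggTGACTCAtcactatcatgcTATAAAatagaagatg
Mmp3: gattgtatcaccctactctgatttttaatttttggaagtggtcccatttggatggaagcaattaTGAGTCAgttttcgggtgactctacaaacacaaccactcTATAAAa
Mmp10: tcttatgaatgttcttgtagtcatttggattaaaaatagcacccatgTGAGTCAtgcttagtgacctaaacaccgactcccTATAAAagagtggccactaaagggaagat
Mmp27: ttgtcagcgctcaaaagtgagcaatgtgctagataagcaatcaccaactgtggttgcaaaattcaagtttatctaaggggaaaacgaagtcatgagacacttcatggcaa

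In *Mmp13*, *Mmp3* and *Mmp10*, the AP-1 motif began 35, 46 and 63 bases before the annotated start and was followed by a TATA motif. Neither motif was found in the 250 bases before the start of *Mmp27*. Of 32851 promoter windows of this length in the reference table, 4.46% held the AP-1 motif, 7.59% the TATA motif and 0.481% both. All 10 genes of the run had a window, and 7 of them held an AP-1 motif in at least 1 window, including the unexpressed *Mmp1b* and *Mmp7*. Of the 8 family genes elsewhere in the genome with a window, among them *Mmp11*, *Mmp14*, *Mmp15*, *Mmp23* and *Mmp28*, 0 held it. Among these 8, *Mmp15* and *Mmp28* were higher in CD34lo fibroblasts and *Mmp23* was higher in CD34hi fibroblasts. *Mmp11*, *Mmp14* and *Mmp25* did not pass, and the others were not tested. *Mmp2*, *Mmp9*, *Mmp16*, *Mmp17* and *Mmp19*, also elsewhere, had no window and could not be searched, so the family is only partly covered. These matches describe the sequence and say nothing of which factor is bound. Whether the motifs bear on the differences between the populations was not tested.

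AP-1, the transcription factor assembled from Fos and Jun proteins, was itself represented by 7 subunit genes. Of these, 5 were higher in CD34lo and 0 in CD34hi fibroblasts, beside 18.7% and 16.9% of all genes tested. The median log2 fold change of the 7 genes was -0.84. *Fos* had 6966, 10304 and 8201 CPM in CD34lo and 3277, 3704 and 4811 CPM in CD34hi fibroblasts (log2 fold change -1.11, edgeR adjusted p = 0.00418). The log2 fold changes were -1.24 for *Jun*, -0.97 for *Fosb*, -0.84 for *Junb* and -0.54 for *Fosl2*. *Fosl2* did not pass in 6 of 9 repeats with some pool or library removed. *Fosl1*, at 1.05, and *Jund*, at -0.44, did not pass, although *Fosl1* did with the replicate block (1.11, edgeR adjusted p = 5.00e-04). The RNA came from dissociated and sorted cells, so the levels of these genes in the intact gland were not measured. A part of AP-1 in the differences of the family genes was not tested.

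Outside the run on chromosome 9, the other tested family genes were *Mmp17*, *Mmp28* and *Mmp25*. In total, 5 of the 13 family genes that are not in the list above were tested. Of these, 3 were higher in CD34lo and 1 in CD34hi fibroblasts, beside 18.7% and 16.9% of all genes tested. *Mmp17*, a membrane-anchored member held by a lipid tail, had 50.3, 22.7 and 45.8 CPM in CD34lo and 4.36, 3.50 and 2.65 CPM in CD34hi fibroblasts. With a log2 fold change of -3.50 (standard error 0.32, edgeR adjusted p = 6.83e-05), it was lower in CD34hi fibroblasts, as were *Mmp15* and *Mmp16*. *Mmp28* (epilysin) had 37, 37 and 28 counts in CD34lo and 1, 1 and 7 counts in CD34hi libraries, and, like *Mmp13*, it entered the test only through its CD34lo libraries. Its log2 fold change was -3.71 (edgeR adjusted p = 0.00271), and it was -5.10 without the CD34hi library of pool 3 and -3.11 without pool 2. *Mmp25* had between 3 and 20 counts in a library and did not pass.

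The tissue inhibitors moved largely in the other direction. *Timp2*, which inhibits the enzymes and also bridges the proenzyme of *Mmp2* to the product of *Mmp14*, had 1230, 1838 and 1404 CPM in CD34lo and 7595, 7957 and 6569 CPM in CD34hi fibroblasts. *Timp2* had a log2 fold change of 2.31 (standard error 0.20, edgeR adjusted p = 4.91e-05), and the populations were far from overlapping. *Timp3*, whose product binds to the extracellular matrix, had 868, 684 and 664 CPM in CD34lo and 1801, 1919 and 1296 CPM in CD34hi fibroblasts. For *Timp3* this gave a log2 fold change of 1.18 (standard error 0.19, edgeR adjusted p = 0.00157). At the protein level the study reports the other direction, with TIMP-3 among the matrix proteins enriched in the secretome of cultured CD34lo fibroblasts. That measure is secreted protein after culture, whereas the values here are RNA of sorted cells. *Reck*, a membrane-anchored inhibitor, had 114, 168 and 150 CPM in CD34lo and 208, 219 and 237 CPM in CD34hi fibroblasts, with a log2 fold change of 0.62 (standard error 0.16, edgeR adjusted p = 0.0142). It did not pass without pool 1 (edgeR adjusted p = 0.0585) or without pool 3 (edgeR adjusted p = 0.0701).

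*Timp1* was the exception, with 108, 41.7 and 60.9 CPM in CD34lo and 20.7, 16.5 and 14.1 CPM in CD34hi fibroblasts (log2 fold change -2.04, standard error 0.32, edgeR adjusted p = 0.00136). *Timp4* had between 1 and 6 counts in a library and was not tested. Per length, *Timp2* had 411 ± 86.4 (SD, n = 3) in CD34lo and 2036 ± 199 (SD, n = 3) in CD34hi fibroblasts, against 1021 for *Mmp2* in the latter. The summed level of the 10 members was 2.49 to 2.59 times that of *Timp1* to *Timp4* in the CD34lo libraries and 0.559 to 0.848 times in the CD34hi libraries. This ratio of RNA levels is a description, without a test, and does not measure enzyme activity.

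**Figure D5:**
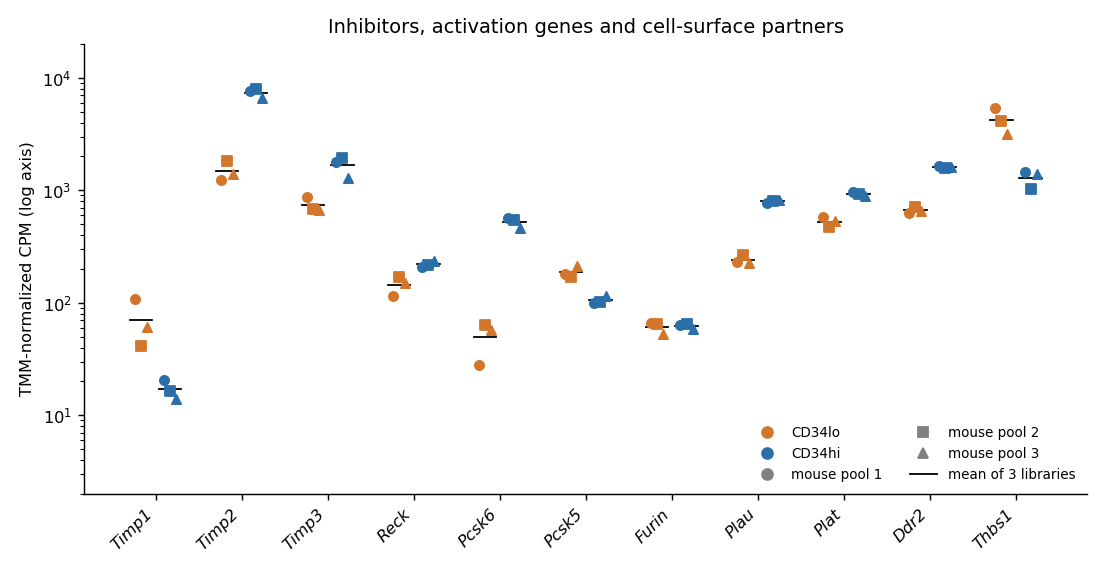
TMM-normalized CPM (log axis) of the inhibitors *Timp1*, *Timp2*, *Timp3* and *Reck*, of 5 genes of proenzyme activation and of *Ddr2* and *Thbs1* in each library, with bars at the mean of 3 libraries. *Timp2*, *Timp3*, *Pcsk6*, *Plau*, *Plat* and *Ddr2* lie higher in all CD34hi libraries, *Timp1*, *Pcsk5* and *Thbs1* lie higher in all CD34lo libraries, and *Furin* overlaps.

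Proprotein convertases and the plasminogen system act on the proenzymes. Of 10 genes for them, 9 were tested, with 3 higher in CD34hi and 1 higher in CD34lo fibroblasts and a median log2 fold change of 0.035. The other 5 did not pass, and a share of this size is near the 35.6% of all genes tested. *Pcsk6*, a proprotein convertase, had 28.2, 63.1 and 57.8 CPM in CD34lo and 567, 547 and 465 CPM in CD34hi fibroblasts (log2 fold change 3.41, standard error 0.29, edgeR adjusted p = 4.60e-05). *Plau* (urokinase), which turns plasminogen into plasmin, had a log2 fold change of 1.73 (edgeR adjusted p = 2.52e-05) and *Plat* (tissue plasminogen activator) had 0.81 (edgeR adjusted p = 0.00170). The convertase *Pcsk5* was higher in CD34lo fibroblasts, with 181, 170 and 212 CPM against 99.2, 101 and 114 CPM (log2 fold change -0.84, edgeR adjusted p = 0.00108). For *Furin* the log2 fold change was 0.035 (95% interval -0.24 to 0.31), which did not pass, and *Plg* (plasminogen) was too low to be tested.

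Among 10 genes for docking, collagen sensing and clearance of the enzymes, 2 were higher in CD34hi and 1 was higher in CD34lo fibroblasts. The share that passed over all genes tested was 35.6%. *Ddr2*, a receptor tyrosine kinase for fibrillar collagen, had 624, 713 and 661 CPM in CD34lo and 1629, 1573 and 1608 CPM in CD34hi fibroblasts (log2 fold change 1.27, edgeR adjusted p = 1.20e-04). *Itgb3*, an integrin subunit, had a log2 fold change of 1.00 (edgeR adjusted p = 0.00136), and *Thbs1* (thrombospondin 1) had -1.71 (edgeR adjusted p = 6.26e-04). The 3 genes became 5 with the replicate block, when *Cd44* (0.74) and *Mrc2* (-0.37) also passed. *Lrp1*, the endocytic receptor that clears several of these enzymes, did not pass (-0.29, edgeR adjusted p = 0.214).

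The substrates of the enzymes were split as well, in lists to be read beside all genes tested, of which 18.7% were higher in CD34lo and 16.9% in CD34hi fibroblasts. Of 7 interstitial genes (fibrillar collagens and fibronectin), 4 were higher in CD34lo and 1 (*Fn1*, 1.29) was higher in CD34hi fibroblasts. The former were *Col5a2* (-0.91), *Col1a1* (-0.87), *Col5a3* (-0.69) and *Col1a2* (-0.69), and without pool 1 only *Fn1* still passed of the list, while 3 genes passed without pool 2. Of 10 basement membrane genes, 5 were higher in CD34lo and 3 in CD34hi fibroblasts. *Col4a2* (-2.43), *Nid2* (-2.07) and *Col4a1* (-2.04) were higher in CD34lo fibroblasts, and *Nid1* (1.32) and *Lama4* (1.02) were higher in CD34hi fibroblasts. The number that passed fell from 8 to 5 without pool 1, without pool 2 and without the CD34hi library of pool 2.

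Markers of other cell types were low but in part unequal between the populations. For comparison, 35.6% of all genes tested passed. The 3 pericyte markers *Rgs5*, *Mcam* and *Notch3* summed to 37.0 to 67.6 CPM in CD34lo and 4.56 to 8.52 CPM in CD34hi libraries, and all 3 were higher in CD34lo fibroblasts, as were *Mmp15*, *Mmp16* and *Mmp17* at similar levels. Most of the sum was *Notch3*, and *Rgs5* had at most 2.67 CPM. The 6 macrophage markers summed to 27.3 to 48.6 and 2.59 to 3.20 CPM. In CD34lo libraries most of this was *Fcgr2b*, the only marker of the list to pass, while *C1qa* had at most 1.61 and *Adgre1* at most 0.0369 CPM. *Fcgr2b* had 49, 7 and 12 counts in the CD34hi libraries and met the filter on low counts only through its CD34lo libraries. The part of pericyte or macrophage RNA in the differences was not tested. Of the 7 epithelial markers, 1 (*Itga6*) was higher in CD34lo fibroblasts, and the summed level was 35.0 to 44.0 CPM in CD34lo and 36.4 to 41.4 CPM in CD34hi libraries. The 4 endothelial markers summed to 33.2 to 55.2 and 50.1 to 94.9 CPM. Most of the CD34hi sum was *Kdr*, which was higher in CD34hi fibroblasts (33.9 to 70.9 CPM against 4.57 to 8.16 CPM). *Pecam1* (log2 fold change -1.145) and *Cdh5* (-1.29) were higher in CD34lo fibroblasts. *Vwf* (-1.20) did not pass, although its CD34lo libraries lay above all CD34hi libraries. Both keratinocyte markers were higher in CD34hi fibroblasts (3.60 to 7.12 and 14.3 to 19.9 CPM in sum). Of these, *Krtdap* had 13, 1 and 2 counts in the CD34lo libraries and met the filter on low counts only through its CD34hi libraries. The 4 Schwann cell markers summed to 20.8 to 26.8 and 42.1 to 52.1 CPM. *Mbp*, the most abundant, was higher in CD34hi fibroblasts, and 2 others were higher in CD34lo fibroblasts. The 4 muscle markers summed to 3.50 to 3.88 CPM in CD34lo and 1.27 to 1.57 CPM in CD34hi libraries, which did not overlap, and *Des* passed as higher in CD34lo fibroblasts (log2 fold change -1.57, edgeR adjusted p = 0.00185). The 4 adipocyte markers summed to 0.482 to 1.81 and 0.179 to 0.690 CPM, which overlapped, and *Plin1* passed as higher in CD34lo fibroblasts (log2 fold change -2.82, edgeR adjusted p = 0.00655). *Plin1* had 3, 6 and 6 counts in the CD34hi libraries and, like *Mmp13*, entered the test only through its CD34lo libraries. The part of these cells in the results was not tested either.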

How the data were processed

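The authors aligned the reads of TruSeq RNA v2 libraries, sequenced on an Illumina NextSeq, to GRCm38/mm10 and used Rsubread 2.2.6 for counting. What they deposited is a table of raw counts, whole numbers without normalization, beside each gene's coordinates and length. The annotation, the strand setting and the treatment of reads matching several places are not given in the sources used here. The study used limma-voom and named no pool covariate.

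Symbols came from a RefSeq gene table (25275 of 27179 identifiers matched). R 4.3.3 with edgeR 4.0.16 applied filterByExpr by population, TMM and the quasi-likelihood test to all 15219 genes kept, with Benjamini-Hochberg adjustment. A standard error is the size of the log2 estimate over the root of its F statistic. Totals were 28764779 to 52402410 counts, and the common coefficient of variation was 19.7%, or 14.9% with the pool as a block. Floors and counting intervals cover counting error only. On simulated counts for this comparison (15258 genes, 200 changed), 70 of 100 genes changed by a log2 of 1 and 96 of 100 changed by 2 were recovered, and 5.14% of calls were false. The simulation changed a far smaller share of genes than the 35.6% that passed in the data, so these rates may not carry over. Both populations of a pool come from the same mice, so same-numbered libraries are paired. Their deviations from the population means correlated at r = 0.28, 0.084 and 0.243 across genes.

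The 10 members and the gene lists were chosen with earlier results of these data known. All members are named. Of the other lists, genes that passed and whose log2 fold change was 1 or more in either direction are named, and others after their values were seen. Alternatives were limma-voom (limma 3.58.1), DESeq2 1.42.0, RLE and upper-quartile scaling, no filter on low counts, a minimum of 10 counts in each library, a replicate block, thinned counts and each pool or library left out. Per-length levels are TMM-scaled CPM per kilobase. Promoters came from RefSeq (GRCm38.p6). The other data of the study were not analysed here. A gene of the list on proenzyme activation is not reported here and was left out of its counts.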

Additional observations from a re-analysis of the deposited data

How the results depend on the processing

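Of the 10 members, 6 differed in the main analysis, and between 5 and 7 did under the 18 alternatives. Across 160 comparisons of single members, 151 changed neither sign nor call, 5 newly passed (all *Mmp11*) and 4 turned sign (all *Mmp14*). *Mmp14* turned from -0.039 to 0.19 without replicate 1, 0.075 without CD34hi replicate 1, 0.040 without CD34hi replicate 2 and 0.11 without CD34lo replicate 1, and its lowest value with a pool or library removed was -0.20. *Mmp13* gave no value with a minimum of 10 counts in each library or with thinned counts. The replicate block let *Mmp11*, *Serpine2*, *Cd44*, *Mrc2*, *Fosl1* and the endothelial marker *Vwf* pass in edgeR and changed no other call among the listed genes. The members that differed numbered 7 with it.

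All genes that differed numbered 5411, and 3468 without replicate 1 (1608 higher in CD34hi, 1860 in CD34lo), between 3468 and 5236 with any pool or library removed. For docking and clearance genes the count rose from 3 to 5 with DESeq2, with the replicate block (edgeR as well as limma-voom) and without CD34lo replicate 2, between 3 and 5 with any pool or library removed. Interstitial genes gave 1 to 6 and basement membrane genes 5 to 8 with a pool or library removed. The cause was not tested.

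Other genes that turned sign did not pass in any of these fits. *Furin* (0.035) was -0.018 with upper-quartile scaling and -0.054 to 0.12 with a pool or library removed. With such removals, *Plaur* (-0.040) was -0.28 to 0.30, *Col5a1* (-0.042) was -0.090 to 0.022 and *Lamb1* (-0.061) was -0.17 to 0.012. *Lamb2* (0.014) was -0.038 with upper-quartile scaling, -0.00087 with a minimum of 10 counts in each library, -0.00014 with thinned counts and -0.088 to 0.14 with removals. Depth limits *Mmp9*, *Mmp13* and the other genes near 3 counts per library.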
